A study of Capra aegagrus with 10 samples.

Results

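The data described here are the small RNA reads of goat mammary gland cells for which no virus or other agent is named. They are the 2 libraries labelled Blank, out of 10 libraries in 5 groups of the series, and were chosen by that label alone. The submitters name the organism Capra aegagrus, the breed Lanshan dairy goat, the tissue mammary gland and the treatment Blank, and the cells of the series were grown in 3D culture. Age, passage and animal are not named. The other 8 libraries, Lv5NC, OV55666, Lv3NC and KD553, come from cells given a virus that raises or lowers the long noncoding RNA lncRNA55666, or a control virus, and were not analysed here. Nothing in the labels says whether the libraries came from separate animals or cultures, so the spread between them may be technical.

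A miRNA is cut from a hairpin in a longer primary transcript by Drosha and then by Dicer, which leaves a duplex of a 5p and a 3p strand. Usually 1 strand, the guide, stays in an Argonaute protein and represses mRNAs, and the other, the passenger, is lost. The seed, bases 2 to 8 from the 5′ end, sets most of the targets, so miRNAs with the same seed form a family. In the mammary gland of other mammals, members of the miR-200 family mark epithelial cells, and miR-143, miR-145, miR-199 and miR-214 mark stromal and smooth muscle cells.

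The table lists 2233 identifiers: 369 known miRNAs with the goat prefix chi-, 1034 predicted miRNAs, 823 RF identifiers of the Rfam family database, 4 predicted siRNAs and 3 rows of reads on intergenic, intron and exon regions. It holds 25445687 reads for Blank replicate 1 and 19616447 for replicate 2. Known miRNAs took 17.6% of the reads in replicate 1 and 41.1% in replicate 2 (29.3 ± 16.6%, SD, n = 2), which is 4465854 and 8059431 reads. Replicate 1 thus had fewer miRNA reads although it had more reads in all. Region rows held 64.7% and 44.7%, RF identifiers 15.4% and 10.7%, and predicted miRNAs 2.39% and 3.47%. Every such share of 1 library has a 95% exact binomial (Clopper-Pearson) interval no wider than 0.0440 percentage points. Such intervals and limits hold counting error alone, because several reads can stem from 1 molecule, and they are far narrower than the gap between the libraries.

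Levels below are counts per 1000000 known miRNA reads (CPM), so that 1 CPM is 4.47 reads in replicate 1 and 8.06 reads in replicate 2. A count of 0 allows up to 0.672 CPM in replicate 1 and 0.372 CPM in replicate 2, taking 3 reads as the limit. Counts of mature miRNAs carry no length term, as the molecules are of nearly equal length. How efficiently each sequence was ligated into a library was not measured, so an order of levels between miRNAs is an order of reads.

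The repertoire was carried by few miRNAs. The 5 most abundant held 46.8% of known miRNA reads in replicate 1 and 47.9% in replicate 2 (47.3 ± 0.775%), the top 10 held 59.4% and 65.4% (62.4 ± 4.27%), and the top 20 held 79.3% and 80.5%. The first 50% of reads lay on 6 miRNAs in each library, 90% on 33 and 32, and 99% on 82 and 79. At the other end, 323 and 314 of the 369 known miRNAs had a read, 299 in both libraries, and 31 had none in either. In both libraries, 180 stood at 10 CPM or more, 111 at 100 CPM or more and 58 at 1000 CPM or more.

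let-7b-5p was the most abundant miRNA in both libraries, at 180447 CPM in replicate 1 and 170999 CPM in replicate 2 (175723 ± 6681 CPM, SD, n = 2). It belongs to the let-7 family, which rises as cells leave the stem cell state and restrains growth genes. miR-222-3p came next at 155276 and 115788 CPM (135532 ± 27922 CPM). It is a repressor of the cell cycle inhibitor p27 in human cells. let-7a-5p followed at 58472 and 76888 CPM (67680 ± 13022 CPM). These places were held by the same miRNAs in each library, and the libraries shared 8 of their top 10 and 16 of their top 20.

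The next 4 by mean level followed. miR-423-3p stood at 39484 and 55673 CPM, miR-99b-5p at 34049 and 59334 CPM, miR-455-3p at 33132 and 35271 CPM and miR-193b-3p at 32367 and 34276 CPM. miR-455-3p lies in an intron of a collagen gene in human, and miR-193b-3p is studied as a restraint on growth in breast cells and as a regulator of fat cells. Within each library miR-455-3p was above miR-193b-3p, and both miR-423-3p and miR-99b-5p were above these. miR-423-3p and miR-99b-5p changed places between the libraries. The ranges over the libraries overlapped between miR-99b-5p and each of the other 3, and between miR-455-3p and miR-193b-3p. miR-191-5p had the smallest gap among the 20, at 27686 and 27556 CPM (27621 ± 92.1 CPM). miR-320-3p, whose precursor is not cut by Drosha, had the next smallest gap, at 12545 and 11941 CPM.

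miR-23b-3p stood at 27747 and 20372 CPM and miR-23a at 27668 and 17661 CPM. miR-378-3p, from an intron of a gene of mitochondrial metabolism, had 23682 and 19984 CPM. miR-21-5p, an abundant miRNA of many growing cells, had 26408 and 15555 CPM. miR-99a-5p and miR-100-5p, whose known targets include the growth kinase mTOR, had 12936 and 21432 CPM and 9171 and 16034 CPM. The remaining members of the top 20 were miR-423-5p (22008 CPM on average), miR-3432-5p (14025 CPM), let-7i-5p (10661 CPM), and miR-92a-3p and miR-92b, which are described below.

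**Figure D1:**
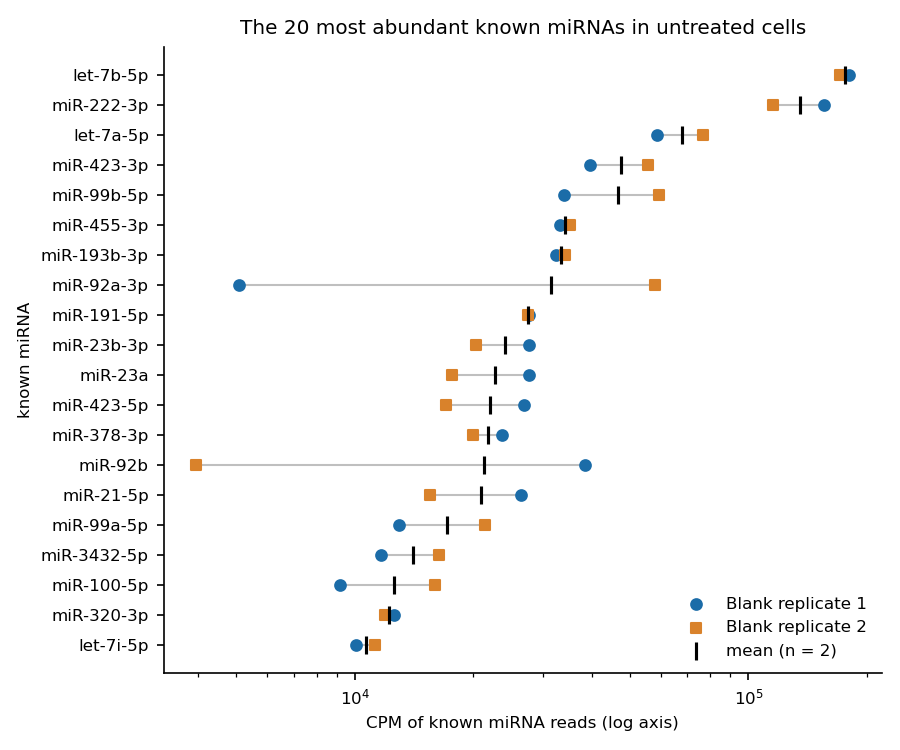
CPM of the 20 most abundant known miRNAs (log axis) in Blank replicate 1 (circles) and replicate 2 (squares), with the mean of both as a tick. let-7b-5p, miR-222-3p and let-7a-5p lead in both libraries, and miR-92a-3p and miR-92b have the widest gaps, in opposite directions.

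Between the libraries most abundant miRNAs kept their level. Of 117 known miRNAs with a mean of at least 100 CPM, 101 (86.3%) were within 2-fold and 73 within 1.5-fold, with a median size of the log2 ratio of 0.41. Of these, 70 were higher in replicate 2 and 47 in replicate 1. Over the 180 miRNAs with at least 10 CPM in both libraries, Pearson's r of log2 CPM was 0.966 and Spearman's rho 0.959. That is a description across miRNAs, which are not replicates and share both libraries, and the limit of 10 CPM in both leaves out the least alike.

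Beyond 2-fold there were 16 of the 117, of which 12 were higher in replicate 1 and 4 in replicate 2. The 10 with the largest ratios, taken by size, began with miR-199c-3p at 876 and 15.3 CPM, on 3910 and 123 reads. The rows miR-199a-3p (2307 and 3968 CPM) and miR-199b-3p (859 and 1269 CPM) were higher in replicate 2. How reads were split among the miR-199 rows is not given in the sources used here, so this gap may rest on it. miR-92a-3p had 5087 and 57918 CPM, an 11.4-fold gap, and miR-92b 38555 and 3956 CPM, a 9.75-fold gap the other way. miR-15b-5p had 4695 and 421 CPM, an 11.1-fold gap. The other 6 were miR-345-5p (581 and 87.2 CPM), miR-27a-3p (5341 and 1251 CPM), miR-1296 (1931 and 1009 reads), miR-145-5p (3988 and 1389 CPM), miR-107-3p (539 and 220 CPM) and let-7f-5p (1313 and 3130 CPM). Of the 10, 8 were higher in replicate 1, and only miR-92a-3p and let-7f-5p were higher in replicate 2. With 2 libraries of a single group none of these gaps can be tested, and the part that the differing share of miRNA reads plays in them was not tested.

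**Figure D2:**
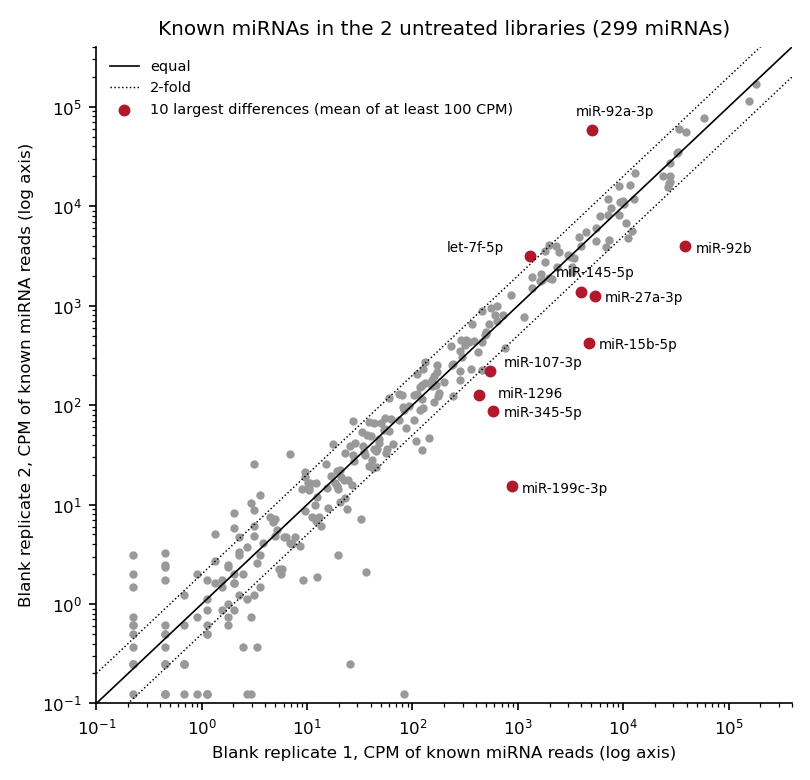
CPM of the 299 known miRNAs with reads in both libraries, replicate 1 on the x axis and replicate 2 on the y axis, both log axes, with a solid line of equality and dotted lines at 2-fold. The 10 largest ratios among miRNAs with a mean of at least 100 CPM are in red, and miR-92a-3p and miR-92b lie on opposite sides of the line.

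No mature sequence was used here, so families were put together by name, from groups known to share a seed in mammals: 93 of the known miRNAs fell into 32 families of at least 2 listed members, and the rest were kept single. Some names carry no arm, such as miR-92b and miR-23a, and were placed with the guide strand of the family. The 10 largest groups held 75.1% of known miRNA reads in replicate 1 and 77.7% in replicate 2.

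The let-7 and miR-98 family was the largest, with 271314 and 285169 CPM over its 9 members (278241 ± 9797 CPM, SD, n = 2), or 27.8 ± 0.980% of known miRNA reads. let-7b-5p made up 63.2% of it on average, and let-7a-5p was next. let-7c-5p (10064 and 10601 CPM) and let-7i-5p (10052 and 11269 CPM) followed. let-7d-5p, let-7e-5p, let-7f-5p and let-7g-5p averaged 5774, 3996, 2221 and 1651 CPM, and miR-98-5p averaged 202 CPM. The members thus spanned from 202 to 175723 CPM while their sum differed by 1.05-fold between the libraries.

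miR-221 and miR-222 summed to 160759 and 120301 CPM (14.1 ± 2.86% of reads), with miR-222-3p at 96.6% and 96.2% of the sum. The miR-99 and miR-100 family summed to 56157 and 96800 CPM (7.65 ± 2.87%). Its members kept their proportions closely although the sum moved: miR-99b-5p was 60.6% and 61.3%, miR-99a-5p 23.0% and 22.1%, and miR-100-5p 16.3% and 16.6%.

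The family of miR-25, miR-92 and miR-363 was the reverse case. Its sum was 44025 and 62320 CPM, a 1.42-fold difference, but miR-92b was 87.6% of it in replicate 1 and 6.35% in replicate 2, and miR-92a-3p 11.6% and 92.9%. miR-92a and miR-92b are near-identical, so reads of either can be assigned to the other, and how the authors assigned such reads is not given in the sources used here. Their sum does not depend on that assignment. miR-25-3p had 381 and 446 CPM, and miR-363-3p had 5 and 4 reads.

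Further down, miR-23 summed to 55415 and 38033 CPM in nearly even parts, and miR-193 to 36165 and 39183 CPM with miR-193b-3p at 89.5% and 87.5%. The 4 other groups in the 10 largest are single miRNAs by this grouping: miR-423-3p, miR-455-3p, miR-191-5p and miR-423-5p. Below these, the miR-125 family, relatives of the worm lin-4 miRNA, had 16466 and 22953 CPM with both members at similar levels. The miR-15 and miR-16 family, repressors of cyclin genes, had 24277 and 10921 CPM. miR-27, a repressor of fat cell regulators, had 16502 and 6023 CPM, the widest gap of any family with a mean of at least 100 CPM (log2 ratio -1.45). Of the 24 such families 22 were within 2-fold, against 39 of their 48 members with a mean of at least 100 CPM. The largest log2 ratio of a family was 1.45 in size and that of a member 3.51. The ratio of a sum always lies between the smallest and the largest ratio of its members. Smaller family ratios were thus largely set in advance, and this comparison cannot show that families are steadier.

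**Figure D3:**
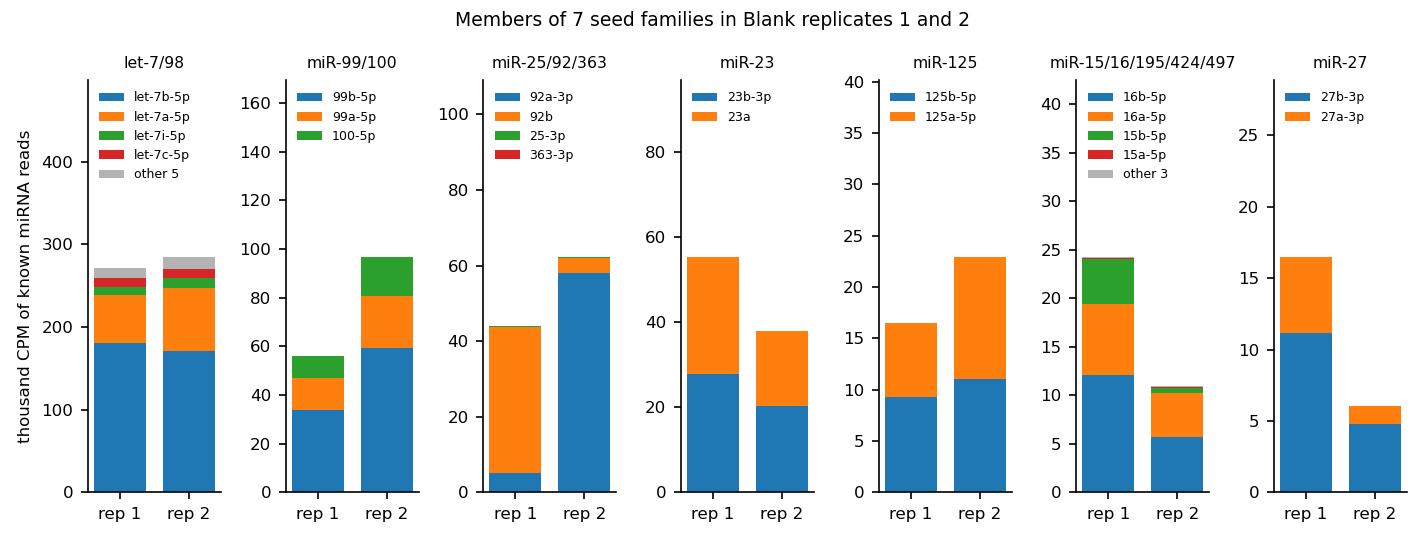
Stacked CPM (in units of 1000, linear axis from 0) of the members of 7 seed families in Blank replicates 1 and 2, with up to 4 members drawn and any others summed in grey; each panel has its own scale. The let-7 and miR-99 families change little in makeup, whereas miR-92b fills most of its family in replicate 1 and miR-92a-3p in replicate 2.

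Arm use was measured in hairpins with both a 5p and a 3p row. There were 122, of which 108 had at least 10 reads over both arms in each library. The same arm was ahead in both libraries for 104 of the 108, the 5p arm in 58 and the 3p arm in 46. In 74 it held at least 90% of the reads in both libraries. The 5p arm took 69.3% and 65.9% of all reads of these hairpins (67.6 ± 2.42%), and the leading arm of each hairpin took 94.4% and 95.5%. These shares leave out miR-222-3p (155276 and 115788 CPM), which has no 5p row beside it. Rows named without an arm, such as miR-92b and miR-23a, are left out as well. The shares thus do not describe all known miRNA reads.

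Among hairpins with both rows, the abundant ones had a clear guide, with 1 exception among the 10 with the most reads. let-7b was 99.7% and 99.5% on its 5p arm, and miR-99b 99.5% and 99.6%. let-7a had 71 and 75 reads on let-7a-3p beside 261128 and 619676 on let-7a-5p. miR-191 was 99.6% and 99.3% on the 5p arm. miR-455, miR-92a, miR-23b and miR-378 lay on the 3p arm, with 0.167% and 0.0931%, 0.499% and 0.0664%, 1.02% and 2.17%, and 1.91% and 2.09% of their reads on the 5p arm. The shares of miR-92a depend on how reads were split between miR-92a-3p and miR-92b. Its 5p arm had 25.5 and 38.5 CPM. miR-193b, also a 3p hairpin, had 5.32% and 9.45% on the 5p arm, or 8127 and 28838 reads. The exception was miR-423, with 40.5% and 23.5% on the 5p arm.

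Several other hairpins gave both strands in quantity. Taken by the share of the minor arm among the 61 hairpins with at least 1000 reads in each library, the 10 highest were led by miR-199a, whose 5p arm held 51.6% (95% exact interval 51.0 to 52.3%) in replicate 1 and 46.6% (46.2 to 47.0%) in replicate 2. On these rows the arm that was ahead differed between the libraries. The 3p count depends on how reads were split with the near-identical miR-199b-3p. With both summed, the 3p strand had 14139 and 42205 reads, against 10998 and 27918 on miR-199a-5p, and was ahead in both libraries. The row miR-199c-3p was kept apart by name and is not in this sum. miR-532 had 37.7% and 43.6% on its minor 3p arm. let-7d had 26.3% and 40.3% on let-7d-3p, which stood at 1969 and 4072 CPM. That sets let-7d apart in value from let-7b and let-7a, whose 3p strands were under 1% of the reads. miR-25 (24.3% and 26.4%), miR-22 (21.5% on average), miR-28 (15.6% and 18.7%) and miR-140 (12.6% and 11.8%) carried these shares on the 5p arm. miR-129 had 16.1% and 11.2% on the 3p arm. miR-27a had 4.30% and 17.2% on the 5p arm. There the passenger, miR-27a-5p, was level at 240 and 260 CPM, and it was miR-27a-3p that differed between the libraries.

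miR-423, described above, is the remaining one of the 10. The 10 hairpins with the smallest minor arm included 4 with no passenger read in either library: miR-16b, miR-362, miR-451 and miR-542. For miR-16b this allows a passenger share of up to 0.00557% in replicate 1 and 0.00655% in replicate 2, and for miR-451 up to 0.289% and 0.0950%. miR-451 is matured by Argonaute2 without Dicer and makes no passenger strand. miR-21 had 55 and 15 reads on miR-21-3p beside 117935 and 125366 on miR-21-5p. miR-155 had 3 and 2, miR-26a 6 and 13, miR-10b 0 and 2, and miR-1307, a 3p hairpin, 4 and 0 reads on the minor arm. The median minor share over the 61 hairpins was 1.37%, with 12 above 10% and 29 below 1%. Apart from miR-199a, the leading arm differed between the libraries in miR-671 (35.9% and 62.8% on the 5p arm, 337 and 893 reads in all), miR-30b (52.4% and 46.8%) and miR-374a (81.8% and 40.6% on 11 and 32 reads). The exact intervals of both libraries include 50% for miR-30b. For miR-374a they do so as well, so that at this depth no leading arm could be told for these hairpins.

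**Figure D4:**
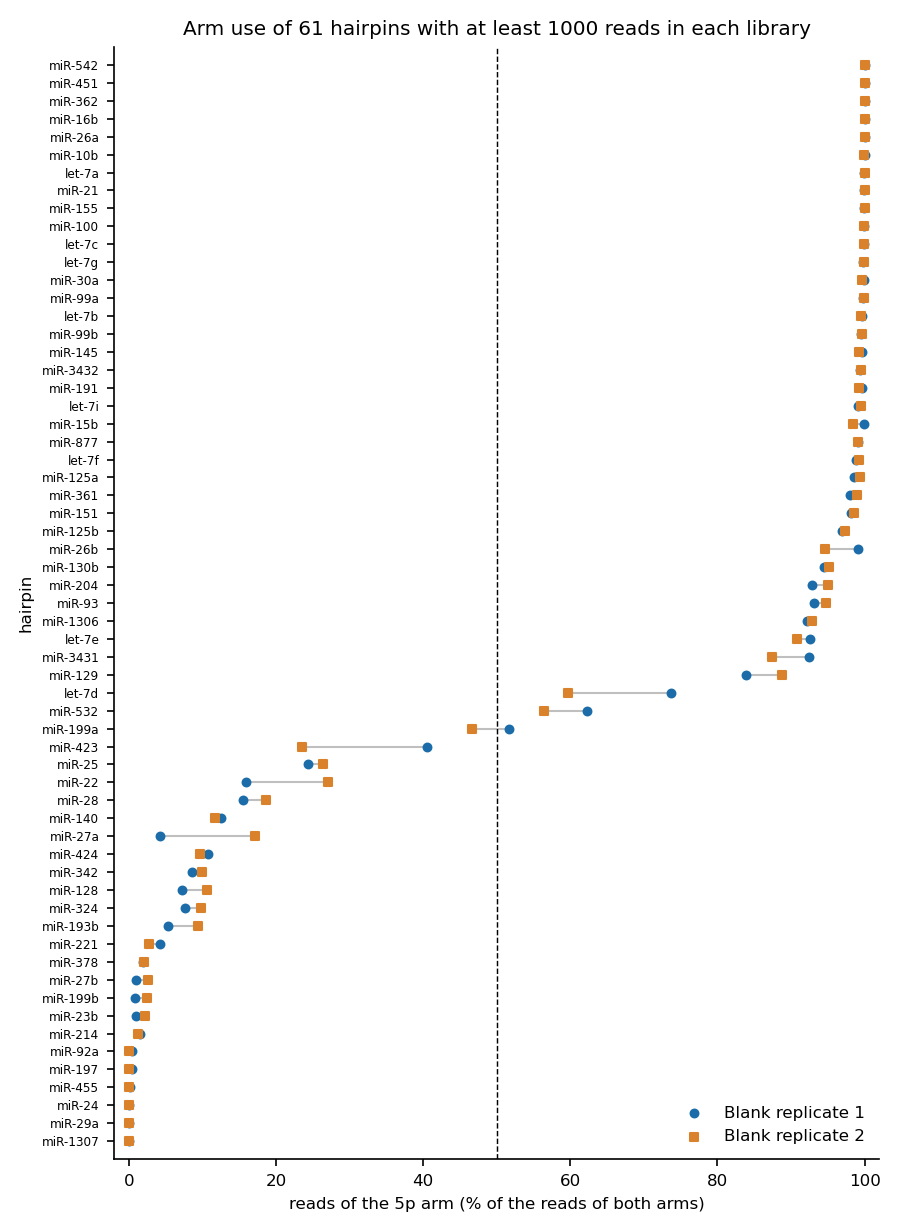
Share of reads on the 5p arm (% of both arms) of the 61 hairpins with at least 1000 reads in each library, circles for Blank replicate 1 and squares for replicate 2, with a dashed line at 50%. Most lie at either edge, and miR-199a, miR-532, let-7d and miR-423 lie nearest the middle.

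In human and mouse, several of these miRNAs are cut from a shared primary transcript, and their mature levels can be set side by side. In the miR-17-92 cluster, known for driving proliferation, miR-17-5p had 62.7 and 73.0 CPM and miR-20a-5p 54.4 and 73.8 CPM. miR-18a-5p had 12.5 and 11.9 CPM and miR-19b-3p 45.5 and 23.7 CPM, and miR-19a was at 1 read in each library. miR-92a-3p exceeded miR-17-5p 81.1-fold in replicate 1 and 794-fold in replicate 2. miR-92a also has a second locus, and its split from miR-92b is uncertain, so these ratios rest on that assignment.

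The paralogous miR-106b-25 cluster also spanned a wide range. miR-93-5p stood at 1646 and 2079 CPM, miR-25-3p at 381 and 446 CPM and miR-106b-5p at 6.27 and 4.71 CPM, so that miR-93-5p exceeded miR-106b-5p 263-fold and 441-fold. For a hairpin of each cluster the 3p arm, not the 5p arm given above, held most reads. miR-106b-3p had 707 and 1585 reads beside 28 and 38 on miR-106b-5p, and miR-18a-3p had 213 and 369 beside 56 and 96 on miR-18a-5p. In human cells the 5p strand is the usual guide of both hairpins. miR-193b-3p exceeded its partner miR-365-3p 245-fold and 207-fold, although miR-365 has a further locus. miR-191-5p exceeded miR-425-5p 165-fold and 174-fold, and miR-222-3p exceeded miR-221-3p 28.3-fold and 25.7-fold.

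In 3 other clusters the members compared lay within 4.87-fold of each other. miR-99a-5p exceeded miR-125b-5p 1.39-fold and 1.95-fold, and let-7c-5p lay between them in replicate 1 and below both in replicate 2. miR-214-3p exceeded miR-199a-5p 2.43-fold and 2.32-fold. miR-143-3p exceeded miR-145-5p 2.64-fold and 4.87-fold. Further groups were wider. miR-99b-5p exceeded let-7e-5p 8.59-fold and 14.7-fold, and exceeded miR-125a-5p 4.78-fold and 4.97-fold. The X-linked group of miR-532, miR-362, miR-500 and miR-660 kept its order, with miR-532-5p 18.6-fold above miR-500-3p in each library. The group of miR-23a, miR-27a and miR-24 was less steady. miR-23a exceeded miR-24-3p 8.45-fold and 8.09-fold but miR-27a-3p 5.18-fold and 14.1-fold, and miR-24 has a further locus beside miR-23b.

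The labels name mammary gland cells and no cell type, and the marker lists were used to describe them. In such bulk libraries fewer cells of a type and less RNA per cell cannot be told apart. Epithelial markers were near 0. Of 11 stems 8 have a row, and their 8 rows summed to 85 reads in replicate 1 and 100 in replicate 2, or 19.0 and 12.4 CPM (15.7 ± 4.68 CPM, SD, n = 2). miR-200c had 31 and 33 reads, miR-200b 25 and 16, miR-429 6 and 22, miR-200a 3 and 2, and miR-141 3 and 0. These repress the EMT factors ZEB1 and ZEB2 in human and mouse. The sensory and epithelial cluster of miR-183, miR-96 and miR-182 had 13 and 6, 2 and 1, and 2 and 20 reads. None of the 8 rows reached 10 CPM in either library, against 48.8% of all 369 known miRNAs that did so in both. miR-205, miR-203 and miR-375 have no row under their names and were not analysed here.

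Stromal markers were abundant, with 9 rows summing to 26219 and 25032 CPM (25625 ± 839 CPM). Of these rows 7 reached 10 CPM in both libraries, beside 180 of all 369 known miRNAs. miR-143-3p had 10517 and 6763 CPM, miR-214-3p 5973 and 8039 CPM, miR-199a-3p 2307 and 3968 CPM, miR-199a-5p 2463 and 3464 CPM and miR-145-5p 3988 and 1389 CPM. miR-199b-3p, which has the same or nearly the same sequence as miR-199a-3p, had 859 and 1269 CPM. The stem miR-199c is not on the list, and miR-199c-3p had 876 and 15.3 CPM. The stromal sum exceeded the epithelial sum 1378-fold in replicate 1 and 2017-fold in replicate 2. This holds for the rows with these names. The totals by which the deposited TPM values were scaled exceed the listed reads by 15214 in replicate 1 and 59484 in replicate 2, equal to 3407 and 7381 CPM, and reads of an epithelial miRNA among them or among the RF identifiers are not counted here.

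The lists for blood, endothelium, muscle and liver summed to levels between the epithelial and stromal sums, which does not show that those cells were present. The blood and immune list had 8 rows and summed to 1662 and 1933 CPM, of which miR-155-5p, which is also induced in activated cells outside the blood, was 82.1% and 77.9%. The red cell miRNA miR-451-5p had 233 and 392 CPM, the lymphoid miR-150 42.3 and 23.3 CPM, the myeloid miR-223-3p 20.4 and 10.5 CPM and miR-144-3p 3 and 5 reads. miR-142 and miR-486 have no row here. The endothelial miR-126-3p had 33.4 and 53.7 CPM. Striated muscle markers summed to 229 and 188 CPM, almost all of it miR-133a-3p (201 and 169 CPM), while miR-1, its cluster partner, had 24 and 18 reads and miR-206 0 and 1. In the liver list the defining miR-122 had 23 and 45 reads and miR-192-5p 55.1 and 58.1 CPM, for a sum of 92.9 and 71.1 CPM.

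The neural list summed to 1329 and 752 CPM, led by miR-129-5p (747 and 374 CPM) and miR-128-3p (1618 and 1875 reads), which occur outside the brain. The neuron-defining miR-124a had 8 and 19 reads, and miR-9-5p 42.8 and 66.3 CPM. The 8 stems of the pluripotent and germ cell list have no row here. Position-marking miRNAs of the HOX clusters were found at 1121 and 1507 CPM in all: miR-196b at 504 and 544 CPM, miR-10b-5p on 1632 and 5259 reads, miR-196a on 758 and 1728 reads and miR-10a-5p at 81.7 and 94.9 CPM. The imprinted DLK1-DIO3 cluster is active in embryonic and many mesenchymal cells of the mouse. Only 26 of its 39 stems have a row. Those rows were low, with 346 and 808 reads over 32 rows (77.5 and 100 CPM). The stems miR-134, miR-299, miR-329a, miR-376a, miR-377, miR-495, miR-541, miR-654, miR-370, miR-539, miR-889, miR-431 and miR-337 have no row and were not counted. Of these rows 3 of 32 reached 10 CPM in both libraries, against 180 of all 369 known miRNAs. No read in either library was found for 6, against 31 of the 369. The listed row with the highest mean was miR-127-3p at 19.7 and 14.4 CPM. In replicate 2 miR-409-3p (19.0 CPM), miR-380-3p (16.5 CPM) and miR-665 (16.5 CPM) stood above it. The list holds neither miR-154b nor miR-323b, and miR-154b-5p had 22.8 and 33.0 CPM and miR-323b 3.13 and 4.84 CPM.

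miRNAs studied in lactation and milk fat were at mixed levels. Of the 35 rows of this list 22 reached 10 CPM in both libraries, beside 180 of all 369 (48.8%), and the sum was 117028 and 70202 CPM (93615 ± 33111 CPM), led by miR-23a and miR-21-5p. miR-26a-5p had 7578 and 9551 CPM. The level of miR-103-3p, which raises milk fat synthesis in goat cells, was 344 and 436 CPM, and its near copy miR-107-3p 539 and 220 CPM. miR-148a-3p, among the most abundant miRNAs of milk in cattle and human, had 86 and 176 reads (19.3 and 21.8 CPM), and miR-148b-3p had 40.3 and 48.9 CPM. miR-30a-5p had 2114 and 1837 CPM. miR-152 and the 5p arm of miR-30d have no row here. The proliferation list, miR-17-92 with its paralogs and miR-221 with miR-222, summed to 168776 and 181613 CPM, led by miR-222-3p. Of its 20 rows, 15 reached 10 CPM in both libraries, beside the same 48.8% of all known miRNAs. The sum includes miR-92a-3p (5087 and 57918 CPM) but not miR-92b (38555 and 3956 CPM). How reads were split between these is uncertain, so the sum and the direction of its gap between the libraries rest on that assignment.

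**Figure D5:**
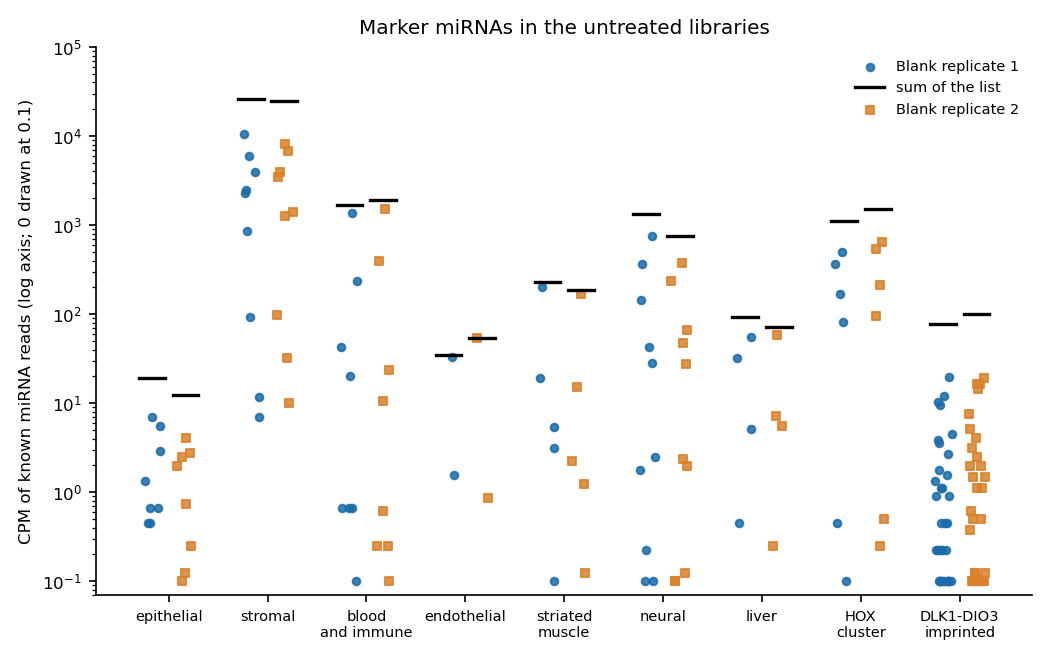
CPM of each listed row (points, log axis, 0 drawn at 0.1) of 9 marker lists in Blank replicate 1 (circles) and replicate 2 (squares), with the sum of the list as a black bar. The epithelial rows lie below 10 CPM and the stromal sums lie at 26219 and 25032 CPM.

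Predicted miRNAs were many but few held reads. Of 1034, 255 had a read in replicate 1 and 610 in replicate 2, 194 in both, on 608671 and 680171 reads. The 5 with the highest mean took 82.3% and 66.1% of predicted reads. On the scale of the known miRNAs, novel_mir672 had 54207 and 6554 CPM, novel_mir2 16647 and 23953 CPM, novel_mir1 18063 and 21126 CPM, novel_mir1121 14411 and 1657 CPM, and novel_mir1174 8778 and 2482 CPM. novel_mir2 and novel_mir1 were similar in both libraries and would rank among the 20 most abundant known miRNAs. novel_mir672 and novel_mir1121 were 8.27-fold and 8.69-fold higher in replicate 1. The table gives no sequence for them, so overlap with known miRNAs was not examined.

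The remaining classes also differed between the libraries. RF identifiers with reads numbered 464 and 457, 374 of them shared. RF00002 alone held 2438038 reads in replicate 1 and 568093 in replicate 2, or 9.58% and 2.90% of the table, and RF00076, the next, 244184 and 278507. Families in Rfam include ribosomal, transfer and small nuclear RNAs and also miRNA precursors, and the table does not pair these identifiers with names. Any miRNA reads under RF identifiers, RF00002 and RF00076 included, are outside the known miRNA share, levels and ranks given here. Intergenic reads were 41.5% and 26.4% of the table, intron reads 13.6 ± 0.709% on average, and exon reads 10.1% and 4.28%. Exon reads per intron read were thus 0.777 and 0.305. Predicted siRNAs had 23 reads of novel_sir6 in replicate 1 and 10 reads of novel_sir4 in replicate 2, and novel_sir1 and novel_sir3 had none.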

How the data were processed

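Small RNA of untreated goat mammary gland cells was sequenced in 2 libraries labelled Blank. The authors' deposited table gives, per the file headers, a whole-number read count and a TPM value per identifier and library, with a missing mark in 1187 and 848 of 2233 cells, read as 0. Each deposited TPM equals the count scaled to 1000000 of 1 library total (within 0.011), with no length term. It was used only to recover that total. The sources used here do not give the aligner, the annotation or the build. The other 16 columns of values belong to other groups and were not used.

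Counts were divided by the known miRNA reads of the library to give CPM. Means are given with the SD of n = 2. No test was possible within 1 group, and no scaling between libraries was applied beyond the total. Intervals are 95% exact binomial. Families, clusters and marker lists were put together by name, and the members and lists were chosen with earlier results of these data known. Named miRNAs are the 20 most abundant, members of the 10 largest families, hairpins by abundance (10) and by minor arm share (10 at each end, at least 1000 reads), the 10 largest library ratios, all markers, 5 predicted miRNAs and 2 RF identifiers. Cluster partners and seed families below the 10 largest were added after values were seen. The planned share of reads starting with U, the shorter seed and the merging of identical sequences need mature sequences and were not run. Python 3.11.15, pandas 2.3.3, numpy 2.4.6, scipy 1.17.1 and matplotlib 3.10.9 were used.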

Additional observations from a re-analysis of the deposited data

Results flagged for a closer look

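The totals behind the deposited TPM columns, 25460901 reads for Blank replicate 1 and 19675931 for replicate 2, exceed the listed reads by 15214 and 59484. These reads, 0.0598% and 0.302% of the totals, carry no identifier in the table, and there is no control library for them. They stand out because they lie outside the measurement and above the 3 reads that a count of 0 allows.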

How the results depend on the processing

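Of 25 values recomputed under settings other than leaving out a replicate, 12 stayed within the spread of the libraries, or within 1.5 times for counts, and 13 moved. Without the region rows known miRNAs were 62.0% of reads in place of 29.3%. The top 10 held 56.8% of reads with predicted miRNAs included and 76.4% with families summed before ranking, an alternative added after seeing the data. The 90% of reads on 33 miRNAs became 50% on 6 and 99% on 82. At 10 CPM 180 miRNAs passed in both libraries, 299 with no filter and 111 at 100 CPM. The stromal sum was 23079 CPM with predicted miRNAs in the denominator, 7443 CPM over all table reads and 7426 CPM over the total behind the TPM column, and 14286 CPM without miR-143 and miR-145 (added). The epithelial sum was 4.22 CPM over all table reads and 4.21 CPM over that total. These follow from the denominators and members chosen. Leaving out a replicate gives the other library's own value, which always lies within 1 SD of a mean of 2 and so says nothing of stability. It gave 17.6 to 41.1% for the known miRNA share, 59.4 to 65.4% for the top 10, 57.2 to 62.0% for the 5 largest families, 32 to 33 miRNAs for 90% of reads, 187 to 193 miRNAs at 10 CPM, 62 to 63 hairpins led by the 5p arm, 25032 to 26219 CPM for the stromal and 12.4 to 19.0 CPM for the epithelial sum. Arm agreement needs both libraries and has no such value. No paired analysis was possible because only 1 group was used. Depth limits rows below about 1 CPM, which rest on under 10 reads.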

Other observations

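Several families below the 10 largest were, among their listed members, carried almost wholly by 1 member. They were picked out after their values were seen. miR-34a, a target of p53 in human and mouse, had 7224 CPM in Blank replicate 1 and 8197 CPM in replicate 2, and held 98.7% of the miR-34 and miR-449 family on average. The miR-449 members belong to ciliated epithelia in mouse, and miR-449a-5p had 73.9 and 129 CPM. miR-29a-3p, a repressor of collagen genes, had 4437 and 5568 CPM and held 98.9% and 99.3% of its family, while miR-29b-3p had 45.9 and 36.5 CPM. miR-181b-5p had 6913 and 3859 CPM and held 99.7% and 99.6% of the listed miR-181 members. Those members were miR-181b-5p, miR-181c-5p and miR-181d alone. No miR-181a row was among them, so the share does not describe the whole family. miR-30a-5p held 97.7% and 98.1% of the listed miR-30 members.

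miR-505-3p, also picked out after its values were seen, had 372 reads in replicate 1 and 1 read in replicate 2. Its mean lies under the 100 CPM above which library ratios were ranked. Known miRNAs with reads in a single library numbered 24 in replicate 1 and 15 in replicate 2, none with more than 11 reads.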
